A study of Mus musculus with 6 samples.

Results

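The 49 genes described here are a list of symbols from the intracellular cAMP pathway, chosen with earlier results of these data known. They include 4 alpha subunits of heterotrimeric G proteins, 6 adenylyl cyclases, 17 phosphodiesterases, and 6 subunits and 2 inhibitors of protein kinase A (PKA). The others are 5 A-kinase anchoring proteins (AKAPs), 2 cAMP-gated exchange factors (EPAC) and 7 genes of the CREB family, its coactivators and its kinase Sik1. They were found by symbol among 55401 gene IDs, and 48 of them passed the filter on low counts, which kept 15334 genes in all. Akap5 was the member that did not pass, with 7 to 18 reads in the WT libraries and 1 to 6 in PLD. The RNA came from primary mouse cholangiocytes, which line the bile ducts. Wild-type animals (WT) were compared with a polycystic liver disease model (PLD), 3 libraries per group, both sampled 3 months after tamoxifen. Genotypes are labelled WT and PLD only, and the sources used here name neither the allele nor the Cre driver of the model. Cells had been freed from the biliary tree by enzyme digestion and collected on magnetic beads carrying an EpCAM antibody. Nothing in the labels ties a library to its own animal, so the spread behind each p-value is that of these libraries and may be technical.

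Cyclic AMP is made from ATP by adenylyl cyclases, which the stimulatory G protein alpha subunit switches on and the inhibitory subunits restrain, and it is broken down by phosphodiesterases. It acts through PKA, which anchoring proteins hold at particular places in the cell, and through EPAC. PKA in turn phosphorylates CREB and frees the CREB coactivators from inhibition by salt-inducible kinases. In bile duct cells, hormones such as secretin raise cAMP to drive fluid and bicarbonate secretion, somatostatin opposes them, and raised cAMP is a known feature of cystic bile duct cells.

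Library totals ran from 15768561 to 16710548 counted reads. All 12 cholangiocyte markers were higher in PLD, with a median log2 fold change of 1.63; their summed level was 9280 to 13550 CPM (reads scaled to a common library size) in WT and 32080 to 44670 in PLD. All 12 endothelial markers were lower (median -3.45), with sums of 5568 to 7362 CPM in WT and 453 to 791 in PLD. Of 14 smooth muscle and fibroblast markers 12 were lower (median -2.22), with sums of 7938 to 12280 CPM in WT and 1687 to 3963 in PLD. None of these 38 markers was at 0 reads in all libraries of a group. Among 9 macrophage markers 3 were higher, 0 were lower and 6 did not pass (median -0.07). Their sums were 682 to 821 CPM in WT and 1276 to 1742 in PLD. Much of that difference lay in Cd14 (mean 264.5 CPM in WT, 874.1 in PLD) and Csf1r (139.7 and 363.8). Hepatocyte markers (1 of 8 higher, 3 lower), glial and neuronal markers (1 of 5 tested higher, 4 lower) and lymphocyte markers (1 of 3 tested higher, 1 lower, at most 6.78 CPM summed) went both ways. PLD replicate 1 had the lowest endothelial (453 CPM) and fibroblast (1687 CPM) sums of any library. In such bulk RNA, fewer cells of a type and less RNA per cell cannot be told apart, and the part of these cell types in any value below was not tested unless a measurement is given for it.

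The listed genes of the cAMP pathway were mostly lower in PLD. In the quasi-likelihood test of edgeR, adjusted by Benjamini-Hochberg over all tested genes, 33 of the 48 tested members (68.8%) fell, against 28.4% of all tested genes that were lower. Pde4d alone rose, against 27.0% of all tested genes that were higher, and 14 members did not pass. The median log2 fold change of the members was -0.75 (range -4.09 to 0.44), against 0.01 over all tested genes. Of 22 tested genes of the same families outside the list, 8 were lower and 4 higher (median -0.34). At least a 2-fold fall was found for 20 members (18.1% of all tested genes), and a fall of at least 4-fold for 11 (8.24% of all tested genes). Both counts include Pde2a and the first also Gnas, which were counted only in part, as described below. No member rose 2-fold or more (9.21% of all tested genes). The libraries of both groups were fully separated for 38 members (79.2%), 36 of them lower and 2 higher in PLD, against 66.2% of all tested genes. No member rose as far as the smallest rise among the cholangiocyte markers (0.83), and 3 of the 33 falls were larger than the endothelial median and 10 larger than the smooth muscle and fibroblast median. PLD replicate 1 was the lowest PLD library for 25 of the 33 members that fell (75.8%), and for 60.3% of all genes that were lower. Without that library 32 members were lower and 2 higher.

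**Figure D1:**
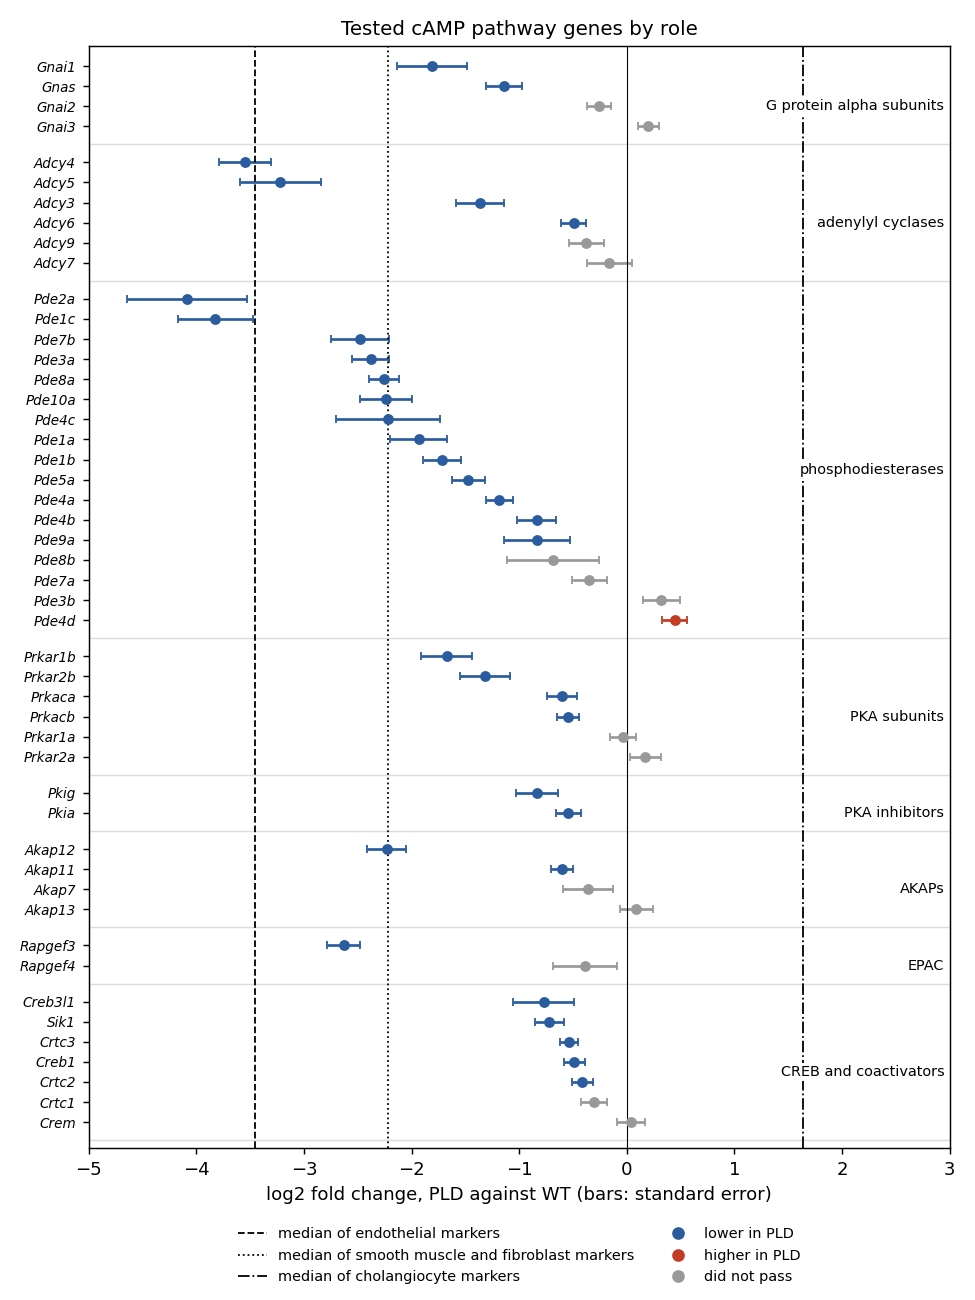
Log2 fold change of the 48 tested members, PLD against WT, grouped by role; points are edgeR estimates, bars standard errors, blue lower, red higher and grey not passed, and vertical lines are the medians of 3 marker lists. Pde2a, Pde1c and Adcy4 lie left of the endothelial median (-3.45), and every member lies left of the cholangiocyte median (1.63). Pde2a and Gnas were counted only in part.

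Levels per kilobase (RPKM) are CPM divided by the length of all annotated exons of a gene, which can be much longer than its principal transcript (12006 against 2554 bases for Pde4d). Levels and shares compared between genes therefore depend on that length. Summed over each role, the listed genes differed in how much of the WT level remained. Such a sum can rest on few genes. In WT, Rapgef3 made up 90.2% of the EPAC sum, Akap12 61.6% of the AKAP sum, Pde4b 57.1% of the phosphodiesterase sum and Adcy4 37.4% of the cyclase sum. EPAC genes stood at 18.5% to 24.2% of the WT mean in the PLD libraries, adenylyl cyclases at 34.0% to 46.9%, phosphodiesterases at 43.3% to 55.4% and AKAPs at 44.7% to 56.6%. PKA subunits stood at 78.5% to 92.3%, overlapping the lowest WT library (91.8%). G protein alpha subunits stood at 84.7% to 87.1%, in a sum that holds Gnas only in part, for the reason given below. The endothelial marker sum stood at 6.8% to 11.9% and the cholangiocyte marker sum at 274.7% to 382.4%. These sums are a description, without a test.

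**Figure D2:**
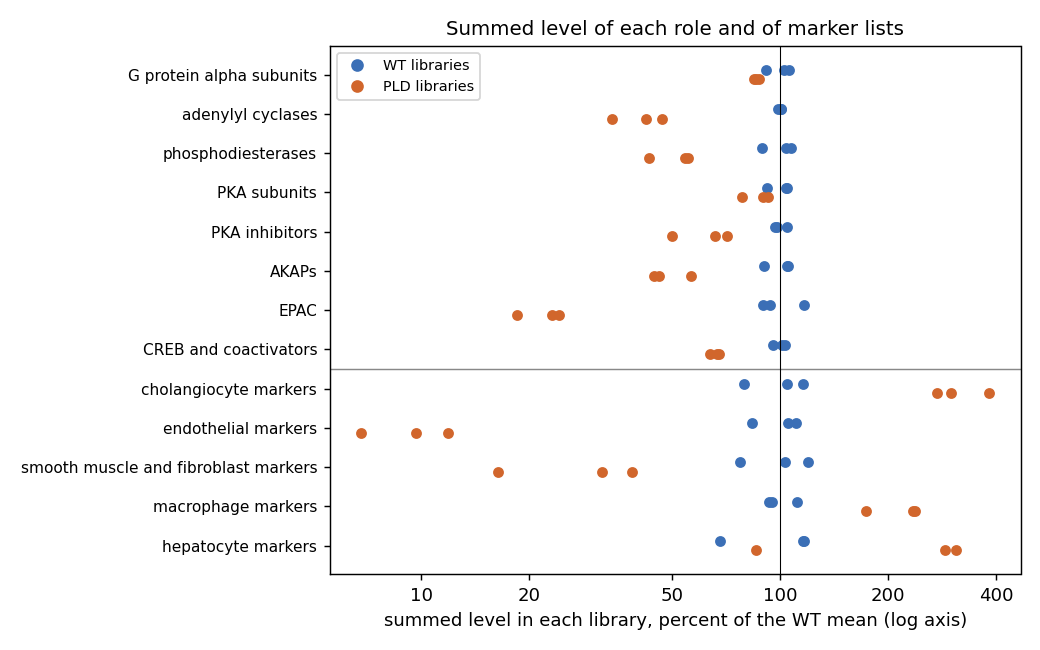
Summed level of each role (RPKM) and of 5 marker lists (CPM) in each library, as percent of the WT mean on a log axis, blue WT and orange PLD, 3 points each. All roles except the PKA subunits show PLD points wholly to the left of the WT points, between the endothelial points (6.8% to 11.9%) and the WT mean.

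The stimulatory subunit gene Gnas (ENSMUSG00000027523.20, mm10 chr2:174284320-174346744, + strand) is counted only in part. Its deposited reads numbered 482, 609 and 563 in WT and 172, 262 and 284 in PLD. An antisense gene model, Gm20721, has exons over all 12 exons of the principal transcript that starts at 174330089 (Gnas-208) and covers 85.4% of its 1716 bases. The longer principal transcript Gnas-202 has 37.6% of its 3903 bases shared. Per the file headers, counting used no strand and no overlap option, and by the program's default a read that touches exons of 2 genes is assigned to neither. Gm20721 itself had 0 to 6 reads per library. The Gnas fall (log2 fold change -1.14 ± 0.17 SE, edgeR adjusted p = 0.00109) therefore describes reads from the unshared parts of a locus with several first exons, and the level of the main Gs alpha mRNA was not measured.

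**Figure D3:**
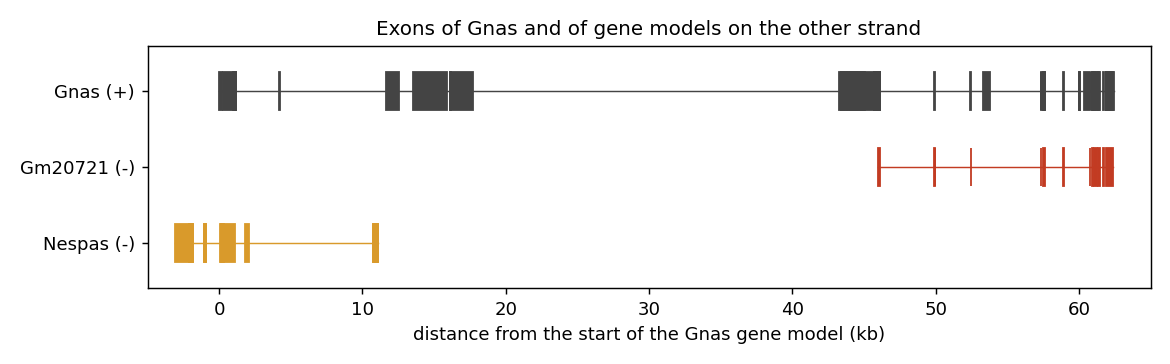
Exons (boxes) of Gnas and of gene models on the other strand, by distance in kb from the start of the Gnas model, as the deposited gene models give them. The Gm20721 exons line up with the exons at the right end of Gnas, those of Gnas-208.

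The phosphodiesterase gene Pde2a was counted in part for the same reason. The gene model Gm45837 on the same strand shared 92.8% of the bases of its principal transcript and 31 of its 32 exons. What remained were 25, 27 and 26 reads in WT and 2, 0 and 2 in PLD, an 18.5-fold ratio of normalised reads (95% exact binomial interval 6.95 to 69.7, counting error only). Adcy3 shared 29.5% of its principal transcript with Cenpo on the other strand, and Rapgef4 11.3% with an antisense model. For 36 of the 49 members the principal transcript shared no base with another gene, and for the 9 not named here it shared at most 10%.

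The inhibitory alpha subunits, which restrain adenylyl cyclase, were far more abundant than the counted part of Gnas, and their members differed. Gnai2, which had the highest measured level per kilobase of the list in both groups, had 572, 682 and 634 CPM in WT and 536, 540 and 504 CPM in PLD. These values did not overlap, but the log2 fold change of -0.26 ± 0.11 did not pass (edgeR adjusted p = 0.0900; DESeq2 called it, adjusted p = 0.0356). Gnai1 had 70.6, 109 and 97.1 CPM in WT against 14.2, 28.2 and 36.3 in PLD, so the highest PLD library lay well below the lowest WT library. It fell by 1.81 ± 0.33 on the log2 scale (edgeR adjusted p = 0.00267). Gnai3 lay at 236 to 261 CPM in WT and 270 to 300 in PLD (log2 fold change 0.20, adjusted p = 0.123). By level per kilobase, Gnai2 made up 60.6% ± 1.27 (mean ± SD, n = 3) of the alpha subunit sum in WT and 59.1% ± 1.62 in PLD. Gnai1 went from 10.7% ± 1.53 to 3.56% ± 1.56. Gnas entered this sum only with its counted part.

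Adenylyl cyclase genes fell for 4 of 6 and rose for 0, where 28.4% of all tested genes were lower and 27.0% higher. The largest of the 6 levels per kilobase in PLD was that of Adcy6. Adcy6 encodes a calcium-inhibited cyclase that works in bile duct secretion. Its values were 194, 175 and 194 CPM in WT and 115, 140.5 and 144 CPM in PLD, and it fell by 0.49 ± 0.12 on the log2 scale (edgeR adjusted p = 0.00923). Adcy4 (ENSMUSG00000022220.14, mm10 chr14:55769057-55784095), a cyclase of the group stimulated by G protein beta-gamma subunits, had 116, 160 and 138.5 CPM in WT against 7.92, 12.4 and 14.9 in PLD. All PLD libraries lay far below all WT libraries, and the log2 fold change of -3.55 ± 0.24 (edgeR adjusted p = 5.88e-05) was close to the endothelial median of -3.45. Adcy5, the other calcium-inhibited form, had 72.6, 60.0 and 65.4 CPM in WT and 3.31, 6.34 and 11.5 in PLD, a log2 fold change of -3.22 ± 0.38. In PLD it was lowest in replicate 1 and highest in replicate 3, as the endothelial and fibroblast sums were. Much of the spread of the fibroblast sum lay in Col1a1 (153.5, 645 and 805.5 CPM in PLD) and Col3a1 (177, 1009 and 1427). Another marker of that list, Dcn, had 841, 826 and 847.5 CPM in PLD and did not follow this order. Replicate 1 was also the lowest PLD library for 60.3% of all genes that were lower. The part of these cell types in the Adcy5 value was not tested. Adcy3 had 16.9, 20.3 and 17.9 CPM in WT and 4.89, 7.44 and 9.01 in PLD (-1.37 ± 0.23), counted over the part of the gene not shared with Cenpo. Adcy7 (log2 fold change -0.16) and Adcy9 (-0.38) did not pass.

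Per kilobase, Adcy4 and Adcy6 lay close together in WT, at 29.6 ± 4.68 and 27.7 ± 1.62 RPKM (mean ± SD, n = 3). In PLD, Adcy6 stood at 19.6 ± 2.34 and Adcy4 at 2.52 ± 0.76 RPKM. The level of Adcy6 relative to Adcy4 was 1.15, 0.752 and 0.966 in the WT libraries and 10, 7.78 and 6.64 in the PLD libraries. Adcy6 thus accounted for 35.0% ± 2.33 of the summed level of the 6 listed cyclases in WT and 60.8% ± 3.09 in PLD, and Adcy7 for 7.51% ± 1.72 and 16.2% ± 1.10, although neither gene's own level rose. With Adcy2, a cyclase outside the list that rose, added to the sum, Adcy6 made up 33.3% ± 2.09 in WT and 48.8% ± 2.38 in PLD, and the summed level in PLD was 48.6% ± 7.33 of the WT mean.

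**Figure D4:**
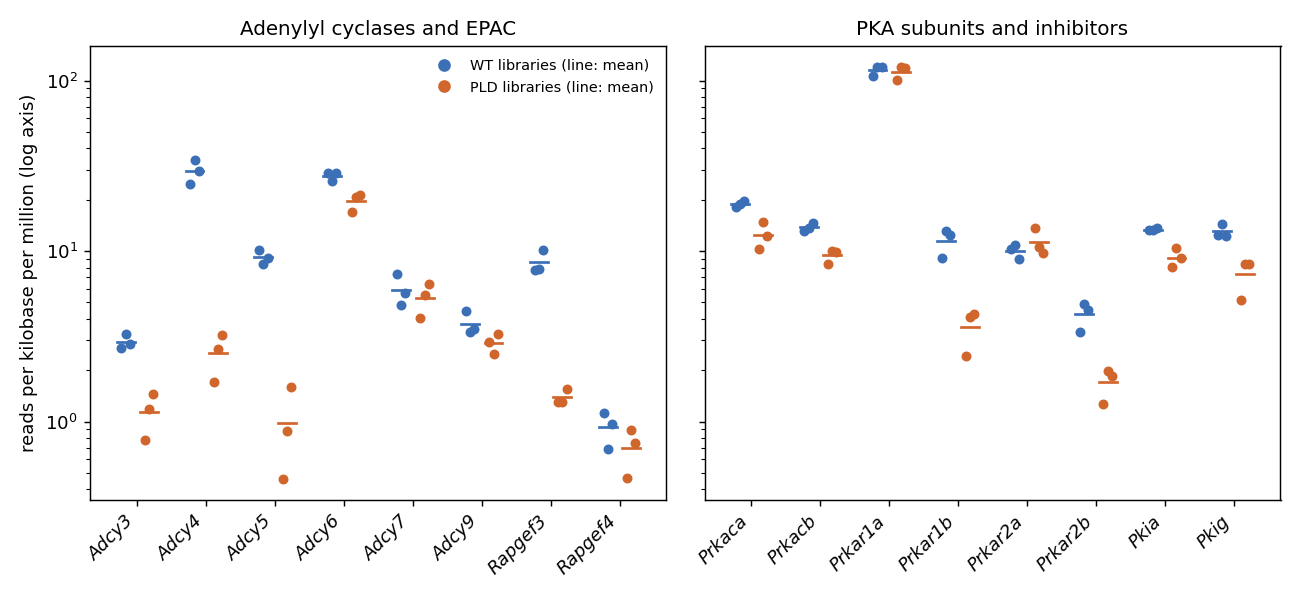
Level of each adenylyl cyclase, EPAC, PKA subunit and PKA inhibitor gene in every library (RPKM, log axis), blue WT and orange PLD, 3 points and a line at the mean for each group. Adcy4 falls from beside Adcy6 to well below it, and Prkar1a stands above all other genes plotted in both groups with overlapping values.

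Phosphodiesterases fell for 13 of 17 members, 11 of them at least 2-fold, and 1 rose. Of all tested genes 28.4% were lower, 18.1% at least 2-fold lower, and 27.0% higher. Pde4b, a cAMP-specific enzyme, was the most abundant of the 17 in every library. It had 764, 573 and 816 CPM in WT and 329, 434 and 441 in PLD. All PLD libraries lay below all WT libraries, and it fell by 0.84 ± 0.18 on the log2 scale (edgeR adjusted p = 0.00573). Pde8a (ENSMUSG00000025584.17, mm10 chr7:81213596-81334533), a high-affinity cAMP-specific enzyme, had 31.7, 37.9 and 34.5 CPM in WT against 8.33, 6.83 and 6.66 in PLD. It had the smallest p of the class (log2 fold change -2.25 ± 0.14, edgeR adjusted p = 4.82e-05) and, unlike most members, its highest PLD value was in PLD replicate 1. Pde3a, which cGMP inhibits and which is known from vascular smooth muscle and platelets, had 129, 121 and 123 CPM in WT and 18.0, 24.2 and 29.2 in PLD, a log2 fold change of -2.38 ± 0.17. Its paralog Pde3b lay at 41.6 to 58.4 CPM in WT and 49.2 to 67.3 in PLD, overlapping, and did not pass (log2 fold change 0.32, adjusted p = 0.148). It passed without PLD replicate 1 (0.45, edgeR adjusted p = 0.0451) or without WT replicate 1 (0.49, edgeR adjusted p = 0.0385).

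The calcium-calmodulin-dependent PDE1 genes all fell. Pde1c had 116, 105 and 109 reads in WT and 3, 10 and 9 in PLD, a 14.2-fold ratio of normalised reads (95% exact binomial interval 9.25 to 23, counting error only). Pde1b had 10.8, 10.4 and 9.08 CPM in WT and 2.82, 3.29 and 3.06 in PLD, a tight separation in both groups (-1.72 ± 0.18, edgeR adjusted p = 2.45e-04). Pde1a fell by 1.94 ± 0.27. Among the other genes Pde7b (-2.48), Pde10a (-2.24), Pde4c (-2.22), the cGMP-specific Pde5a (-1.47) and Pde4a (-1.19) fell as well. The Pde4c value was -2.99 without PLD replicate 2. Pde9a, also cGMP-specific, was at the threshold (-0.83, edgeR adjusted p = 0.0499) and lost its call with no filter on low counts (-0.82, edgeR adjusted p = 0.0536) and without any library other than PLD replicate 1. Pde7a (-0.35) and Pde8b (-0.68) did not pass.

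Pde4d, another cAMP-specific enzyme and the only member that rose, is named with its values after they were seen. It had 29.7, 27.2 and 29.8 CPM in WT and 39.2, 34.6 and 44.0 in PLD, with no overlap. The rise was 0.44 ± 0.12 on the log2 scale, a 1.36-fold change (edgeR adjusted p = 0.0154), and without WT replicate 2 it no longer passed (0.40, adjusted p = 0.0541). Within the PDE4 family it thus went opposite to Pde4a, Pde4b and Pde4c, and its share of the summed phosphodiesterase level went from 2.04% ± 0.09 to 5.48% ± 0.95 (4.63% ± 0.34 to 11.4% ± 1.92 with principal transcript lengths). When the trend of fold change with gene length was removed, its rise was 0.73, and Pde3b (0.52, edgeR adjusted p = 0.0362) and Akap13 (0.58, edgeR adjusted p = 0.00732) were called higher too.

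By substrate, the 8 members specific for cAMP summed to 88.7 ± 12.1 RPKM in WT and 47.5 ± 6.31 in PLD, which is 53.6% of the WT mean. The 7 that hydrolyse both nucleotides summed to 25.3 ± 1.15 and 11.01 ± 1.88 RPKM (43.5%), and the 2 specific for cGMP to 4.40 ± 0.67 and 1.87 ± 0.22 RPKM (42.5%). Pde4b held 57.1% ± 5.07 of the summed phosphodiesterase level in WT and 62.8% ± 1.67 in PLD. Pde3b went from 4.44% ± 0.73 to 10.8% ± 0.57 and Pde3a from 8.28% ± 0.68 to 3.07% ± 0.39, so that the order of the PDE3 pair was the reverse in PLD. With principal transcript lengths these shares were 2.97% ± 0.49 and 6.66% ± 0.40 for Pde3b and 4.14% ± 0.45 and 1.41% ± 0.17 for Pde3a. Shares are fractions of a sum that itself was lower in PLD and carry no test.

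**Figure D5:**
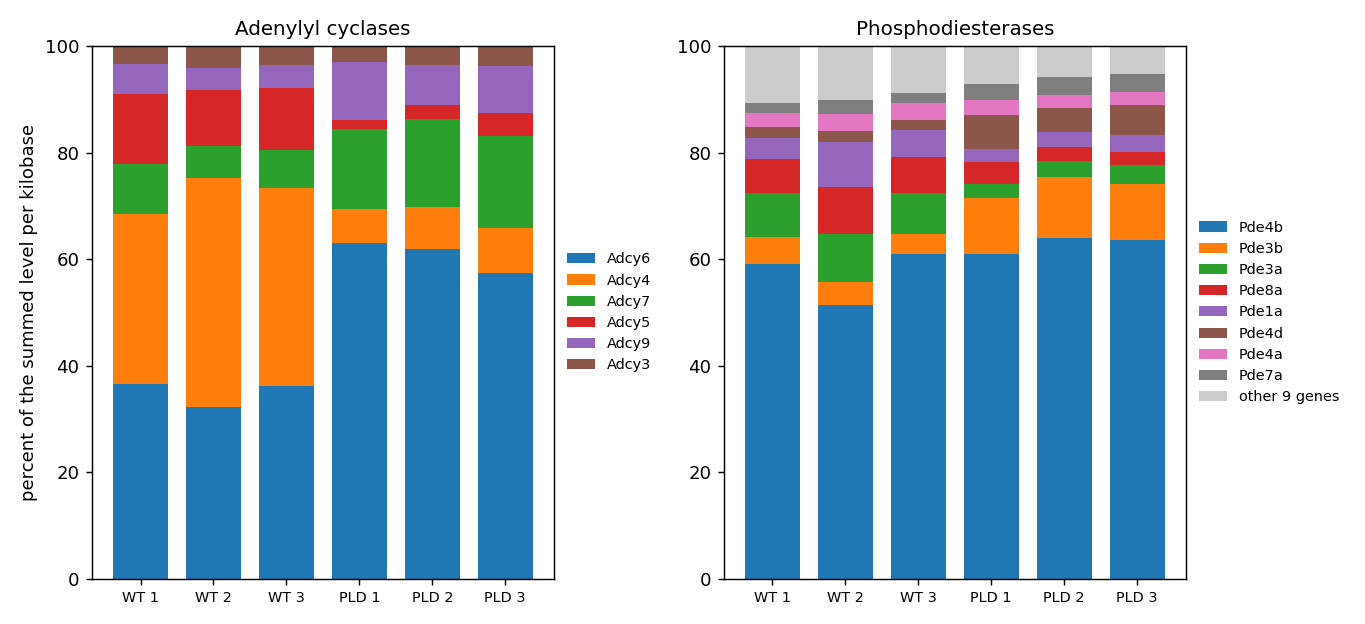
Share of each gene in the summed level per kilobase of the adenylyl cyclases (left) and phosphodiesterases (right), in percent, with a bar for each library. Adcy6 takes 32.3% to 36.6% of the cyclase bars in WT and 57.3% to 63.1% in PLD, while Pde4b is the largest part of every phosphodiesterase bar.

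PKA consists of catalytic subunits held inactive by a dimer of regulatory subunits, which cAMP releases. Both catalytic subunit genes fell and the most abundant regulatory gene did not pass. Prkacb had 116, 120 and 128.5 CPM in WT and 73.8, 88.3 and 87.2 in PLD (-0.55 ± 0.10, edgeR adjusted p = 0.00366), and Prkaca fell by 0.60 ± 0.14. Prkar1a, the type I alpha regulatory subunit, had 459, 521 and 523 CPM in WT and 436, 517 and 510 in PLD. These values overlapped almost fully, and the log2 fold change was -0.04 ± 0.12 (edgeR adjusted p = 0.797). Prkar2a did not pass either (0.17). The beta forms, known best from nerve and endocrine tissue, behaved differently from their alpha counterparts. Prkar1b fell from 34.6, 49.9 and 47.1 CPM to 9.23, 15.7 and 16.2 (-1.67 ± 0.24, edgeR adjusted p = 9.46e-04). Prkar2b fell from 12.2, 18.0 and 16.5 CPM to 4.62, 7.26 and 6.79 (-1.32 ± 0.23). The difference between alpha and beta forms was not itself tested.

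Per kilobase, Prkar1a accounted for 66.4% ± 0.30 of the summed PKA subunit level in WT and 74.5% ± 0.98 in PLD. The summed regulatory level relative to the summed catalytic level was 4.11, 4.59 and 4.28 in the WT libraries and 6.31, 5.50 and 6.03 in PLD, without overlap. The 2 listed inhibitors of the catalytic subunit both fell. Pkia had 49.2, 49.2 and 50.9 CPM in WT and 30.0, 38.6 and 33.7 in PLD (-0.54 ± 0.12). Pkig had 49.6, 57.9 and 49.1 CPM in WT and 20.6, 33.7 and 33.3 in PLD (-0.84 ± 0.19). A further inhibitor gene outside the list, Pkib, rose, from 24, 12 and 21 reads in WT to 98, 135 and 140 in PLD (2.77 ± 0.29, edgeR adjusted p = 2.61e-04).

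CREB binds the cAMP response element TGACGTCA and its core TGACG. The 250 bases before annotated start sites were searched for both on both strands, with the core also counted inside full elements. Windows from RefSeq (GRCm38.p6) existed for 37 members, 81 windows in all, many of them alternative starts of a gene that overlap. The full element was in 1 member gene, Prkar1a, against 1.77% of all genes, and the core was in 14 member genes (37.8%, against 19.8% of all genes). Genes with several windows have more chances to hold it; by window, 22.2% of member windows held the core against 17.8% of all windows of that length. Shown are Prkar1a and its paralog Prkar1b, of which only Prkar1b was called lower, with the catalytic gene Prkaca and the phosphodiesterase gene Pde8a. For each gene the window with the most matches was picked, so every window shown holds a match. Other windows of Prkar1a, Prkar1b and Prkaca held none, and only 1 of the 81 member windows held the full element. RefSeq starts can differ from those of the counted gene models. All read 5′ to 3′ along the gene, and that of Prkar1a, which lies inside the counted gene model upstream of an internal exon, is printed up to that exon. Capitals mark the full element and the core. A match describes letters only and says nothing of binding.
Prkar1a, + strand, chr11:109650699-109650920: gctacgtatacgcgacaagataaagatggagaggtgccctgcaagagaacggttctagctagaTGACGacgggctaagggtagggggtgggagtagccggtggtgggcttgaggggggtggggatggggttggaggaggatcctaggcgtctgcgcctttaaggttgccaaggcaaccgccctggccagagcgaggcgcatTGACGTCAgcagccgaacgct
Prkar1b, - strand, chr5:139150002-139150251: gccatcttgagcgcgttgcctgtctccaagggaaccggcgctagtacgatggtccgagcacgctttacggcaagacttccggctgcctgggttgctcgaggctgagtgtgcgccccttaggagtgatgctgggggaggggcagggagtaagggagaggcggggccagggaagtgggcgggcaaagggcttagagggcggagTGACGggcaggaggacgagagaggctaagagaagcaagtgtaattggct
Prkaca, + strand, chr8:83972728-83972977: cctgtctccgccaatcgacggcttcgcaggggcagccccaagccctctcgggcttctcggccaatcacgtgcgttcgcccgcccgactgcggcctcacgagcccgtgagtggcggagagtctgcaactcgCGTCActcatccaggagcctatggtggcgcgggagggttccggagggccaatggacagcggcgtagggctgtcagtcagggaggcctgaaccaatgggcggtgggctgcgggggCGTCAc
Pde8a, + strand, chr7:81213015-81213264: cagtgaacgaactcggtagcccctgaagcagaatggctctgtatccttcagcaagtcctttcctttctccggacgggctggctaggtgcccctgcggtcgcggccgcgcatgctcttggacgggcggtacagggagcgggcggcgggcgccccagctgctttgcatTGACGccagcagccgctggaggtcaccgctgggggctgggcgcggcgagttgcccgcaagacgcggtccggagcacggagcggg
The full element of Prkar1a begins 49 bases before the RefSeq start its window was taken from, and the core begins 49 bases before it in Prkar1b and 84 in Pde8a. The 2 cores of Prkaca, read on the other strand as CGTCA, begin 120 and 6 bases before its start.

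Among the anchoring proteins, 2 of 4 tested members fell, where 28.4% of all tested genes were lower. Akap12, a scaffold of PKA and protein kinase C, had 306, 437 and 388 CPM in WT and 67.1, 80.0 and 93.6 in PLD. It fell by 2.23 ± 0.18 (edgeR adjusted p = 9.35e-05), at the smooth muscle and fibroblast median of -2.22. That marker list ranged widely, from -5.31 to -0.74. Pde8a (-2.25), Pde10a (-2.24) and Pde4c (-2.22) lay near its median too. Akap12 was lowest in PLD replicate 1 like the smooth muscle and fibroblast sum, and like 75.8% of the members that fell. Much of the spread of that sum over the PLD libraries lay in Col1a1 and Col3a1. The part of smooth muscle cells and fibroblasts in the Akap12 value was not tested. Akap11, which binds PKA and glycogen synthase kinase, had 91.7, 83.3 and 83.3 CPM in WT and 57.7, 51.3 and 61.2 in PLD (-0.60 ± 0.10, or -0.34 after removal of the length trend). Akap7 had 18.0, 11.2 and 13.2 CPM in WT and 13.7, 10 and 9.37 in PLD, overlapping, and did not pass (-0.36). Akap13 overlapped between groups at 428 to 549 CPM in WT and 464 to 622 in PLD (log2 fold change 0.09). In WT Akap12 made up 61.6% ± 6.16 of the summed AKAP level and Akap13 26.0% ± 4.05; in PLD the shares were 26.8% ± 1.93 and 55.7% ± 1.80.

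The EPAC genes encode exchange factors that cAMP switches on to activate Rap. Rapgef3 (EPAC1; ENSMUSG00000022469.17, mm10 chr15:97744770-97767972) had 49.3, 49.7 and 64.4 CPM in WT and 8.20, 8.30 and 9.85 in PLD. The groups were far apart, and the log2 fold change was -2.63 ± 0.15 by edgeR (adjusted p = 4.11e-05). Rapgef4 (EPAC2) was low in both groups, at 7.49, 4.599 and 6.42 CPM in WT and 3.10, 5.98 and 4.98 in PLD, overlapping, and did not pass (-0.39). Endothelial cells are known to use EPAC1 in barrier control. The endothelial marker median in the same libraries was -3.45 and the smooth muscle and fibroblast median -2.22. The part of either cell type in the Rapgef3 value was not tested.

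At the transcription end of the pathway 5 of 7 members fell (28.4% of all tested genes), none by 2-fold (18.1% of all tested genes). Sik1, a kinase that CREB induces and that restrains its coactivators, had the highest mean level per kilobase of this group, with 425, 319 and 361 CPM in WT and 237, 203 and 230 in PLD (-0.72 ± 0.14, edgeR adjusted p = 0.00319). Crtc3, a coactivator, varied little within each group, with 66.9, 67.6 and 67.5 CPM in WT and 48.3, 44.0 and 46.8 in PLD (-0.54 ± 0.09, edgeR adjusted p = 0.00169). Crtc2 fell by 0.41 ± 0.10, and Crtc1 did not pass (-0.30). Creb1 had 78.8, 86.4 and 88.2 CPM in WT and 59.6, 55.6 and 65.4 in PLD (-0.49 ± 0.10), a call that was lost after removal of the length trend (-0.15, edgeR adjusted p = 0.181). Creb3l1, a membrane-bound factor known from secretory and matrix-producing cells, was close to the threshold with overlapping values (-0.77, edgeR adjusted p = 0.0468). Its call was lost with limma-voom (-0.74, adjusted p = 0.0541) and without any library other than WT replicate 1. Crem, whose induced short forms repress cAMP-responsive genes, did not pass (0.04); its gene count cannot separate those forms. Of 11 immediate early genes, which cell handling can induce, 6 were lower and 0 higher in PLD (median -0.51). Over all tested genes 28.4% were lower and 27.0% higher. The part of these immediate early genes in the Sik1 value was not tested.

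Genes of the pathway outside the list were read from the same fit, in which 28.4% of all tested genes were lower and 27.0% higher. Of 35 genes in the families that are not members, 22 were tested, and 4 rose and 8 fell (median -0.34). Adcy2, a cyclase not on the list, rose from 16.5, 15.0 and 18.2 CPM to 30.0, 31.9 and 37.9 (1.01 ± 0.14, edgeR adjusted p = 7.4e-04), opposite to the cyclases that changed on the list. Creb3l2, a relative of Creb3l1, fell by 1.38 ± 0.13. Among 25 receptor genes coupled to Gs or Gi, 19 were tested, 10 fell and 2 rose (median -1.13). Among those that fell were S1pr1 (-3.10 ± 0.24) and Calcrl (-3.75 ± 0.39), both well known from endothelium. The secretin receptor gene Sctr, named after its values were seen, had 37, 40 and 34 reads in WT and 0, 1 and 4 in PLD. The 2 receptor genes that rose, also named after their values were seen, were Sstr2, a somatostatin receptor gene with 43, 21 and 24 reads in WT and 81, 82 and 74 in PLD (1.51 ± 0.31, edgeR adjusted p = 0.00484), and the adenosine receptor gene Adora1 (0.72 ± 0.13, edgeR adjusted p = 0.00237). Of 12 genes known to respond to cAMP, 7 fell and 1 rose (median -0.69). Nr4a1, Fos and Dusp1 are also in the immediate early list, which was lower too (median -0.51); Nr4a1 and Fos fell and Dusp1 did not pass. Nr4a3 fell by 1.10 ± 0.15 and Per1 by 1.18 ± 0.20, whereas Areg, an EGF receptor ligand gene, lay between 2.22 and 5.55 CPM in WT and between 76.9 and 198 CPM in PLD (5.15 ± 0.53).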

How the data were processed

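Polyadenylated RNA was sequenced on the BGISEQ-500 platform, per the labels' protocols, as 3 WT and 3 PLD libraries. Each deposited table holds raw counts of reads by gene. The authors counted with featureCounts 1.6.0 against GENCODE vM25 gene models (mm10), per the file headers. The command names no strand, paired-end or overlap option. Per the submitters' processing notes, other tools were DESeq2 1.26.0, STAR 2.7.4a and SAMtools 1.12. Symbols were matched for 55141 of 55401 IDs. Groups come from the sample titles. edgeR 4.0.16 in R 4.3.3 tested PLD against WT (filterByExpr, TMM factors 0.922 to 1.04, quasi-likelihood F test, threshold 0.05); a standard error is the log2 fold change over the square root of F. CPM and RPKM use TMM-scaled totals and the deposited exon lengths. Replicate pairs differed beyond sampling noise (chi-square per degree of freedom 9.72 to 63.9). At these totals 3 reads are 0.180 to 0.190 CPM. On simulated counts with known changes, the fit recovered 64% of 2-fold and 97% of 4-fold changes, and 4.73% of its calls were false. A member that did not pass is thus not shown to be unchanged. Alternatives were RLE and upper-quartile factors, DESeq2 1.42.0, limma-voom 3.58.1, no filter, 1 CPM in 3 libraries, a replicate block, removal of a loess length trend (span 0.5, centred per library) and leaving out each library; principal transcript lengths and Adcy2 in the cyclase sum were added after seeing the data. Transcript overlaps used GENCODE vM21 transcripts of the same build against the exons of the deposited tables. Library values are printed for the members of each role with the smallest p (up to 4 phosphodiesterases, up to 3 elsewhere) and the highest level per kilobase, with all members in roles of 2; of other lists up to 3 genes with the smallest p are named, except 1 result that is not reported here. The members and lists were chosen with earlier results of these data known.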

Additional observations from a re-analysis of the deposited data

How the results depend on the processing

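Over 14 alternatives, 38 of the 48 tested members kept their direction and their side of the threshold, and of 672 member values 14 lost a call, 5 gained one and 5 changed sign. The count of lower members was 31 to 34 (main 33). The count of higher members (main 1) was 3 after removal of the length trend, where Pde3b and Akap13 joined Pde4d, and 0 to 2 when a library was left out. Sign changes came only with a library left out and only in genes that had not passed: Adcy7 (without PLD replicate 1 or WT replicate 1; log2 fold changes -0.302 to 0.021 over the libraries left out), Prkar1a (without PLD replicate 1; -0.097 to 0.043), Akap13 (without PLD replicate 3; -0.043 to 0.179) and Crem (without WT replicate 2; -0.068 to 0.172). The cause of these changes was not tested. Same-numbered libraries deviated together with correlations of 0.16, 0.04 and 0.06, and PLD replicates 2 and 3 correlated best with a WT library of another number, so the numbers were not taken as pairs. With the replicate block 33 members were lower and 1 higher, and 3920 of all genes were higher and 4242 lower. Low counts limit Pde2a, Pde1c and Akap5, which had at most 10 reads in any PLD library. The Pde2a count also lacks the reads that touch exons shared with Gm45837. Both changes to the levels that follow were chosen after seeing the data. With principal transcript lengths, PLD means relative to WT were 84.7% for G protein alpha subunits, 56.8% for AKAPs and 68.8% for the CREB group, and the regulatory to catalytic PKA level was 3.64 in WT and 4.92 in PLD. With Adcy2 in the sum, cyclases stood at 48.6%.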
